A study of Rattus norvegicus with 17 samples.

Results

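The comparison described here sets the inner lining of narrowed side branches of a vein against that of vein without a lesion, in a rat model of the arteriovenous fistula. In this operation a vein is joined to an artery, as is done to give access to the blood for dialysis. The stenotic side branch (n = 3) is a side branch of the superficial epigastric vein with luminal stenosis after 13 to 14 days of arterialized flow. The venous-flow vein (n = 6) is a stretch of the same vein beyond a ligation, which kept venous flow for the same time and had no lesion. These 9 arrays were chosen by the sample labels alone, out of 17 arrays in all. The other arrays were 5 of epigastric vein with neointimal hyperplasia (NIH), a thickening of the inner wall, and 3 of the common femoral artery without a lesion, both taken 13 to 14 days after fistula surgery. They entered the fit but are no subject here.

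Endothelial cells were cut out of 10 µm cryosections by laser capture, 10 captures made up a sample, and amplification of 50 ng of its RNA gave the probe, labelled with 1 dye. Fistulas are described for 6 rats. No label says which rat a region came from, so arrays may share an animal and the p-values cover the spread between arrays only. For the venous-flow vein, the source field names ligation surgery while the description names fistula surgery. Vessel, flow, lesion and the surgery named differ together and cannot be told apart. In captured tissue, fewer cells of a type and less RNA per cell cannot be told apart either.

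Stenosis is the main reason why fistulas fail. In the wall of a stenotic vein, smooth muscle-like cells and matrix accumulate below the endothelium, and leukocytes enter through it. Myeloid leukocytes carry receptors that signal through adaptor proteins such as Tyrobp, whose tyrosine motif is phosphorylated by kinases of the Src family such as Lyn. The kinase Csk and the phosphatase Ptpn6 restrain this signal. Endothelial cells under undisturbed flow express anticoagulant genes such as Thbd, the gene of thrombomodulin.

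The 2 deposited forms of the data assign arrays differently to samples, and this decides the sign of the differences called below. The scanner output of 12 arrays has, over 10000 spots, the rank order of a value-table column that belongs to another sample. The arrays are therefore described in 4 sets of 3. In the scanner output, set A is stenotic side branches 1 to 3, which the value table carries as venous-flow veins 1 to 3. In the same way, set B is venous-flow veins 1, 5 and 6, which the value table carries as stenotic side branches 1 to 3. Set C is venous-flow vein 2 to 4 in the scanner output and femoral artery in the value table, and set D is femoral artery in the scanner output and venous-flow vein 4 to 6 in the value table. The files do not say which form is right. The stenotic side branch minus vein is thus set A minus sets B and C by the scanner output, and set B minus sets A and D by the value table. Sets A and B lie on opposite sides of the comparison in both forms, so that the size of their difference belongs to it either way, while its sign does not.

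Levels of the scanner output are log2 intensities after background correction and quantile normalization, with a floor of 5.64 set by an added offset of 50 and a median of 6.12. The median signal above background on the 9 arrays lay between 30.9 and 56.3 intensity units, so that most of the 9446 features tested are dim. A fold is left out where the lower of both means is less than 0.5 above the floor. Values of the value table are on their own log2 scale, which has no such floor. Of the labelled cell type's 23 listed markers, 4 were measured, and the defining genes Pecam1, Cdh5 and Vwf are not analysed here. Of those 4, Kdr, a receptor of vascular endothelial growth factor, stood at 7.31, 7.82 and 8.91 in the stenotic arrays, and Mcam, Sox18 and Aqp1 between 6.02 and 7.11.

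A band of spots on stenotic side branch 3 and NIH vein 1 read near background. Spots that were dim on both arrays recurred in the order of spot numbers every 215 spots, the best of the periods tried, and positions were counted in runs of that length. Of 47 spots at positions 171 to 215 that were bright on each of the other 15 arrays, 46 (97.9%) were not bright on stenotic side branch 3, and 46 were not on NIH vein 1. Their median signal above background was 23.6 intensity units on stenotic side branch 3, against 362.4 to 2726.9 on the other 15 arrays. At positions 151 to 170 the count was 12 of 22 on each array, and at positions 1 to 150 it was 19 of 184 on stenotic side branch 3 and 4 of 184 on NIH vein 1. The limits at 151 and 171 were set from these same shares, so that high shares beyond 171 were fixed in advance. Positions 151 to 215 hold 36.0% of the 10000 spots, and they are called the strip below. At positions 151 to 160, bright spots on stenotic side branch 3 still had a median log2 signal of 9.51. The other 15 arrays had 8.38 to 12.46 there, so the strip also takes in sound readings. As an alternative chosen after seeing the data, the strip was left out on those 2 arrays and the normalization repeated, and its effect is stated where it ended the call of a named gene. In 1 case among the 12 named genes of the scanner comparison, Phgdh, it ended the call.

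**Figure D1:**
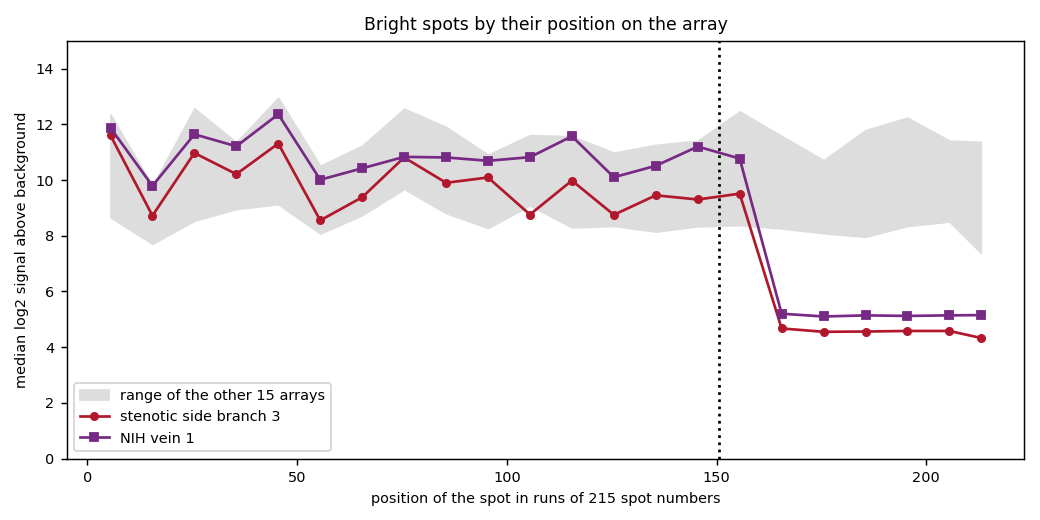
Median log2 signal above background (vertical axis) of bright spots against their position in runs of 215 spot numbers (horizontal axis). Red circles are stenotic side branch 3, violet squares NIH vein 1, and the grey band is the range of the other 15 arrays. The dotted line marks the start of the strip, and both arrays fall below the band from position 161 on.

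The profiles of the arrays also cross the groups. Over 785 features with a mean level above 8, stenotic side branch 3 had a correlation of 0.89 with NIH vein 1, of 0.60 with stenotic side branch 2 and of 0.22 with stenotic side branch 1. With venous-flow vein 5 it was 0.53, with vein 2 it was 0.39, and with veins 1, 3, 4 and 6 it ran from -0.12 to 0.07. Stenotic side branch 1 had correlations of 0.37 to 0.79 with the 6 veins. The correlations include features with spots in the strip, where stenotic side branch 3 and NIH vein 1 both mostly read near background. How far the strip shapes them was not tested. They describe arrays that share the normalization and carry no test. The fits that left out 1 array are therefore reported where they ended the call of a gene described by its values.

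By the samples of the scanner output, receptors and signalling proteins of leukocytes were among the genes that rose in the stenotic side branch. Of 9446 features, 37 were called at an adjusted p under 0.05 (0.392% of those tested), 35 of them higher (0.371%) and 2 lower (0.0212%). All 14 with a gene symbol were higher. The 2 lower features, with log2 differences of -2.73 and -0.92, have no symbol. An unadjusted p under 0.05 was reached by 1612 features, and the median difference over all features was 0.02. With the strip left out, 59 were higher (0.625%) and 13 lower (0.138%), and 32 of the 37 remained. Leaving out stenotic side branch 3 brought this to 8, and leaving out vein 1, 2, 3 or 6 to between 17 and 22. It came to 114 when stenotic side branch 1 was dropped and to 128 when vein 5 was. The split of higher against lower calls was 65 to 26 with background subtracted, 66 to 45 with an offset of 16 and 5 to 0 with median scaling. Below, p-values are from limma with Benjamini-Hochberg adjustment over all 9446 features, and the error of a difference is its SE.

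Among the receptors, C5ar1, which binds the complement fragment C5a on myeloid cells, stood at 7.76, 7.30 and 9.30 in stenotic side branches 1 to 3. In venous-flow veins 1 to 6 it stood at 6.33, 5.77, 5.88, 6.85, 6.20 and 5.78. Every stenotic array lay above every vein, and the third stood far above the other 2. The log2 difference was 1.98 ± 0.35 (adjusted p = 0.0255), and with the strip left out 1.82 (adjusted p = 0.014). Without stenotic side branch 3 it was 1.39 and no longer called (adjusted p = 0.0961), and the call was also lost without vein 1, 2, 3 or 6.

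Klra5, a lectin-like receptor of a multigene family in rodents, stood at 7.81, 6.92 and 7.96 against 5.72 to 6.44 in the 6 veins. Cross-hybridization within the family was not tested. Its rise in log2 terms was 1.61 ± 0.22 (adjusted p = 0.00435), and it kept its call without any 1 of the 9 arrays, with differences from 1.41 to 1.94. Igsf6, an immunoglobulin-type receptor of myeloid cells, stood at 7.10, 6.73 and 7.69 against 5.81 to 6.10. The rise was 1.23 ± 0.17 (adjusted p = 0.00477), and it too kept its call without any 1 array. For both genes the groups did not overlap. All veins lay within 0.5 of the floor for Igsf6, and for Klra5 vein 4 stood above that, at 6.44. Tnfrsf1b, the second receptor of tumour necrosis factor, stood at 6.59, 6.59 and 6.95 against 5.90 to 6.16. The log2 difference was small, 0.64 ± 0.12 (adjusted p = 0.0366), and it was not called without stenotic side branch 3 (0.52, adjusted p = 0.265), without stenotic side branch 2, or without vein 1, 2, 3 or 6.

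Tyrobp, the adaptor through which receptors of myeloid and natural killer cells signal, stood at 8.91, 8.62 and 10.52 in the stenotic arrays and at 7.22, 6.81, 7.33, 7.60, 7.21 and 6.60 in veins 1 to 6. The lowest stenotic value lay above the highest vein. Tyrobp was 4.67-fold higher (log2 2.22 ± 0.33, adjusted p = 0.00719). Its spot lies at the first position of the strip, where stenotic side branch 3 still read brightly. With the strip left out, which removes that array for this gene, the difference was 1.63 (adjusted p = 0.0081), and without the whole array 1.64 (adjusted p = 0.0247). It kept its call without any 1 of the 9 arrays.

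The kinases and the phosphatase that act on such receptors were higher as well. Lyn, which phosphorylates their tyrosine motifs, stood at 7.20, 6.91 and 7.41 against 5.84 to 6.28 in the veins. The rise of Lyn was 1.10 ± 0.15 (adjusted p = 0.00435), with 0.96 to 1.23 over the fits that left out the strip or 1 array, all of them called. Csk, which holds kinases of the Lyn type inactive, stood at 7.62, 7.66 and 8.37 against 6.46 to 6.93. It was 2.32-fold higher (log2 1.21 ± 0.23, adjusted p = 0.0366), but with 0.97 not called without stenotic side branch 3 (adjusted p = 0.265), and it kept its call in 3 of the 9 fits that left out 1 array. Ptpn6, a phosphatase that ends signalling in leukocytes, stood at 7.05, 6.58 and 7.46 against 5.78 to 6.11. Its log2 difference was 1.05 ± 0.16 (adjusted p = 0.00979), and 0.83 without stenotic side branch 3 (adjusted p = 0.0736). Gene by gene, no stenotic array overlapped a vein in Lyn, Csk or Ptpn6.

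Coro1a, an actin-binding protein of leukocytes, stood at 7.47, 7.26 and 7.86 in the stenotic arrays. In veins 1 to 6 it stood at 6.35, 6.05, 6.32, 6.46, 6.08 and 5.86, again without overlap. It was 2.53-fold higher (log2 1.34 ± 0.21, adjusted p = 0.00882), and the difference was 1.19 with the strip left out (adjusted p = 0.0147). Without stenotic side branch 3 it was 1.18 and not called (adjusted p = 0.0832). Non-overlapping groups are common in this comparison: 11.9% of all features tested had them, 6.97% with the stenotic side branch higher and 4.93% with it lower.

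Other named genes rose too. Hopx, a small homeodomain protein without DNA binding, stood at 7.22, 7.56 and 9.49 against 5.77 to 6.34, a log2 difference of 1.97 ± 0.36 (adjusted p = 0.0275) that was not called without vein 1, 2, 3 or 6. Phgdh, the first enzyme of serine synthesis, stood at 6.57, 6.89 and 6.66 against 5.66 to 6.46. Its log2 difference of 0.76 (adjusted p = 0.0318) was not called with the strip left out (adjusted p = 0.0803), although its own spot lies outside it. Phgdh kept its call in 3 of the 9 fits that left out 1 array, and lost it without stenotic side branch 3 (adjusted p = 0.141). Tmem106a, a membrane protein, had a log2 difference of 0.79 (adjusted p = 0.0366). It was called in 2 of those 9 fits, and not without stenotic side branch 3 (0.66, adjusted p = 0.252).

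**Figure D2:**
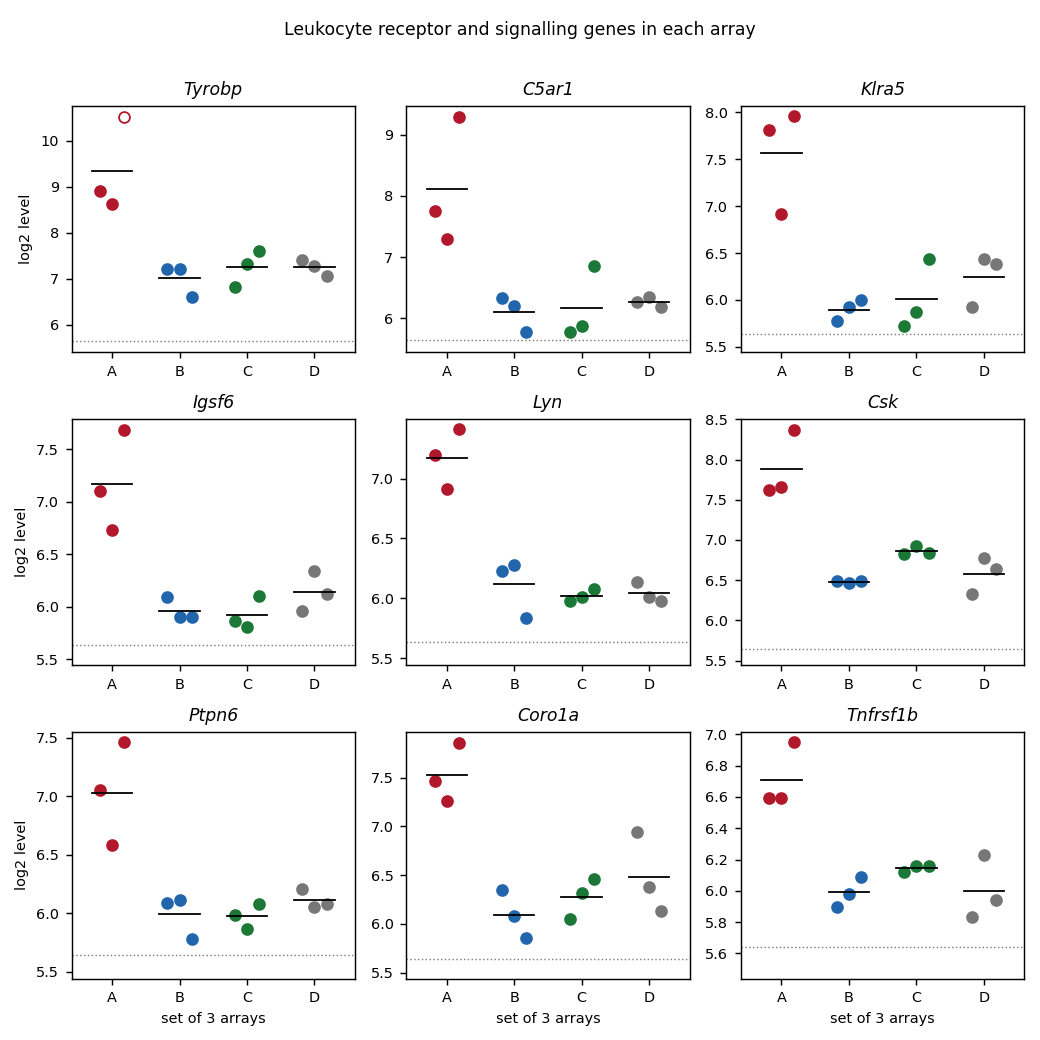
Log2 level (vertical axis) of 9 leukocyte receptor and signalling genes in each array, by set of 3 arrays (horizontal axis). By the scanner output, A is the stenotic side branch, B and C the venous-flow vein and D the femoral artery; bars are means of 3, the dotted line is the floor of 5.64, and an open circle is stenotic side branch 3 where the spot lies in the strip. Set A is the highest of the sets for each gene.

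With the strip left out, further genes were called, chosen here after their values were seen. Serping1, the inhibitor of the first complement component, stood at 11.10 and 10.63 in stenotic side branches 1 and 2 and at 5.89 on the third array, where its spot lies in the strip. The veins lay between 8.46 and 9.89. Its log2 difference was 0.30 with all values (adjusted p = 0.91) and 1.96 ± 0.30 without the strip (adjusted p = 0.0111). C1qb, a chain of the first complement component made by macrophages, has its spot outside the strip and stood at 9.84, 8.66 and 11.43 against 6.42 to 8.74. Its log2 difference was 2.81 (adjusted p = 0.0521) and 2.68 with the strip left out (adjusted p = 0.0443). Its lowest stenotic value lay below its highest vein. Tbxas1, thromboxane synthase of platelets and macrophages, stood at 6.56, 6.68 and 8.17 against 5.69 to 6.31, with 1.13 ± 0.21 (adjusted p = 0.0281) in that fit. Ftl1, ferritin light chain, stood at 11.95, 12.59 and 14.78 against 9.94 to 11.47, with 2.41 ± 0.48 (adjusted p = 0.0397). The transcription factor Runx1, needed for blood cell formation, had 1.06 (adjusted p = 0.0449).

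With the strip left out, 5 genes with a symbol were called lower. Gjd3, a connexin of gap junctions, stood at 6.34, 6.27 and 6.74 in the stenotic side branch, at 7.23 in venous-flow vein 5 and from 8.04 to 9.47 in the other 5 veins. Its log2 difference was -2.22 ± 0.47 (adjusted p = 0.0454). The adaptor Grb7 had -1.83 (adjusted p = 0.0454), the neurotrophic factor Gdnf was also called lower (adjusted p = 0.047), and the respiratory chain subunit Ndufv1 had -1.73 (adjusted p = 0.047) and the Golgi complex subunit Cog7 -1.64 (adjusted p = 0.0477). None of these 5 was called with all values or by the samples of the value table.

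By the samples of the value table the same genes had the opposite sign, and none of them was called. There Tyrobp stood at 6.94, 6.93 and 6.17 in the stenotic side branch and at 8.83, 8.51, 10.49, 7.16, 7.01 and 6.73 in veins 1 to 6. Veins 1 to 3 of that form, which are set A, were high, and veins 4 to 6, which are set D, stood with the stenotic arrays. The log2 difference was -1.44 ± 0.63 (adjusted p = 0.765). C5ar1 had -1.36 ± 0.66 (adjusted p = 0.81), Coro1a -1.18 ± 0.40 (adjusted p = 0.551), Klra5 -1.34 ± 0.47 (adjusted p = 0.568) and Lyn -0.65 ± 0.39 (adjusted p = 0.84). All 37 features called by the scanner output had the opposite sign in the value table. Both comparisons share the arrays of sets A and B.

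The value table had its own genes higher in the stenotic side branch, and no feature lower. It called 20 features (0.212% of 9446 tested), all higher and 9 with a symbol, none of them among the 37. An unadjusted p under 0.05 was reached by 595, and the count with the strip left out was again 20, of which 14 were among the first 20, with 19 higher (0.201%) and 1 lower (0.0106%). Tf, the iron carrier transferrin, stood at 8.10, 8.66 and 7.89 in stenotic side branches 1 to 3 and at 6.07, 5.50, 5.72, 5.04, 5.57 and 5.47 in veins 1 to 6. The 3 stenotic columns lay apart from all 6 veins, and the log2 difference was 2.66 ± 0.33 (adjusted p = 0.00296; 2.74 and 0.00256 with the strip left out). It kept its call without any 1 of the 9 columns.

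Anxa3, a calcium-dependent membrane-binding protein, stood at 8.58, 10.11 and 8.77 against 5.08 to 6.94, a log2 difference of 2.91 ± 0.43 (adjusted p = 0.0138; 0.0247 with the strip left out). It lost its call only without stenotic side branch 2, among the fits that left out 1 column. Meox2, a homeodomain factor of endothelial and smooth muscle cells, stood at 7.96, 9.51 and 8.14 against 5.12 to 7.41, with 2.66 ± 0.49 (adjusted p = 0.0431), a call kept in 1 of the 9 fits that left out 1 column (adjusted p up to 0.439). Khdrbs3, an RNA-binding protein, stood at 6.52, 6.37 and 6.63 against 5.01 to 5.62, with 1.25 ± 0.16 (adjusted p = 0.00296), called in all 9. These 3 genes did not overlap between the groups, which held for 5.22% of all features, 2.9% with the stenotic side branch higher. The small GTPase Arl4a had 2.19 ± 0.39 and Cyyr1 1.04 ± 0.19 (adjusted p = 0.0356 for both), each called in 2 of the 9 fits (adjusted p up to 0.372 and 0.396). The calls of 3 genes with spots in the strip were lost when it was left out: G0s2, an inhibitor of fat breakdown (2.05, adjusted p = 0.049, then 0.0857), the junction gene Jam2 (1.45, adjusted p = 0.049, then 0.0778) and Rph3al, a protein of vesicle release (1.22, adjusted p = 0.0356, then 0.0536). Without 1 column, G0s2 and Jam2 kept their call in 1 of the 9 fits and Rph3al in 2.

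The difference between sets A and B holds in size under both forms. It called 72 features (0.762% of 9446), 37 higher in set A (0.392%) and 35 higher in set B (0.371%), and 27 of them have a symbol. With the strip left out the count was 91, of which 60 were among the 72, and of the named genes Anxa3, G0s2, Rph3al and Cyb561d2 lost their call. Among the fits with 1 array dropped, 21 features were called when that was stenotic side branch 3, 29 for vein 1, 8 for vein 5 and 39 for vein 6. In set A were 12 of the genes: 9 are described above, and Metrnl, Runx1 and Cyb561d2 were added. Metrnl, a secreted factor related to meteorin, stood at 7.74, 8.23 and 8.77 in set A and at 6.16, 6.44 and 6.29 in set B, 3.87-fold apart (log2 1.95 ± 0.32, adjusted p = 0.0153). Runx1 stood at 6.98, 7.12 and 7.47 against 5.67, 5.71 and 5.66, with set B at the floor (log2 1.51 ± 0.26, adjusted p = 0.0192). In both genes set C lay between, from 7.07 to 7.60 for Metrnl and from 6.11 to 6.43 for Runx1. For the receptors and kinases the sizes were 2.34 ± 0.39 for Tyrobp (adjusted p = 0.0153), 2.02 ± 0.42 for C5ar1 (adjusted p = 0.0475), 1.43 ± 0.24 for Coro1a (adjusted p = 0.016) and 1.06 ± 0.17 for Lyn (adjusted p = 0.0153). All 4 stayed called with the strip left out. Without stenotic side branch 3 the calls of C5ar1 (adjusted p = 0.103), Coro1a (adjusted p = 0.0755), Lyn (adjusted p = 0.0705), Metrnl (adjusted p = 0.0618) and Runx1 (adjusted p = 0.0859) were lost. Of the 6 fits that left out 1 array, Tyrobp was called in 4, Coro1a, Lyn and Metrnl in 3, Runx1 in 2 and C5ar1 and Cyb561d2 in 1, and none of these genes was called without vein 5.

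On the side of set B were 15 genes with a symbol. Thbd, whose protein turns thrombin to an anticoagulant role, stood at 10.35, 11.39 and 8.76 in set B, at a mean of 7.17 ± 0.23 in set A (SD, n = 3; highest array 7.44) and at 8.44, 7.61 and 7.26 in set C. It was 8-fold higher in set B than in set A (log2 difference of A minus B -3.00 ± 0.60, adjusted p = 0.0386; 0.0272 with the strip left out). Without stenotic side branch 3 of the scanner output it was not called (-2.92, adjusted p = 0.141), and it was called in 1 of the 6 fits. In neither form was Thbd called for the groups themselves: it had -1.80 by the scanner output (adjusted p = 0.246) and 2.75 by the value table (adjusted p = 0.097), where it was called when stenotic side branch 3 of that form was left out (3.48, adjusted p = 0.0258). Gchfr, which regulates the synthesis of the cofactor of nitric oxide synthase, stood at 8.16, 8.28 and 7.99 in set B against 6.55, 6.75 and 6.91 in set A (-1.40 ± 0.20, adjusted p = 0.00876). The levels within each set lay close together, and the gap was several times their spread.

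Nrxn2, a neurexin, had the smallest adjusted p of a gene with a symbol, with 7.28, 6.93 and 6.94 in set B against 5.81, 5.78 and 5.69 in set A (-1.29 ± 0.13, adjusted p = 0.000973). Tf had -2.05 ± 0.29 and Jam2 -1.45 ± 0.20 (adjusted p = 0.00689 for both). Jam2, a junctional adhesion protein of venules, stood at 7.08, 8.08 and 7.14 in set B and between 5.89 and 6.14 in all arrays of sets A and C. A second probe of Jam2 gave a log2 difference of 0.01, so the probes disagree. Of the fits that left out 1 array of sets A and B, Nrxn2, Jam2 and Khdrbs3 kept their call in all 6, and Tf and Gchfr lost it only without venous-flow vein 5. Sets A and B did not overlap in 26.3% of all features.

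**Figure D3:**
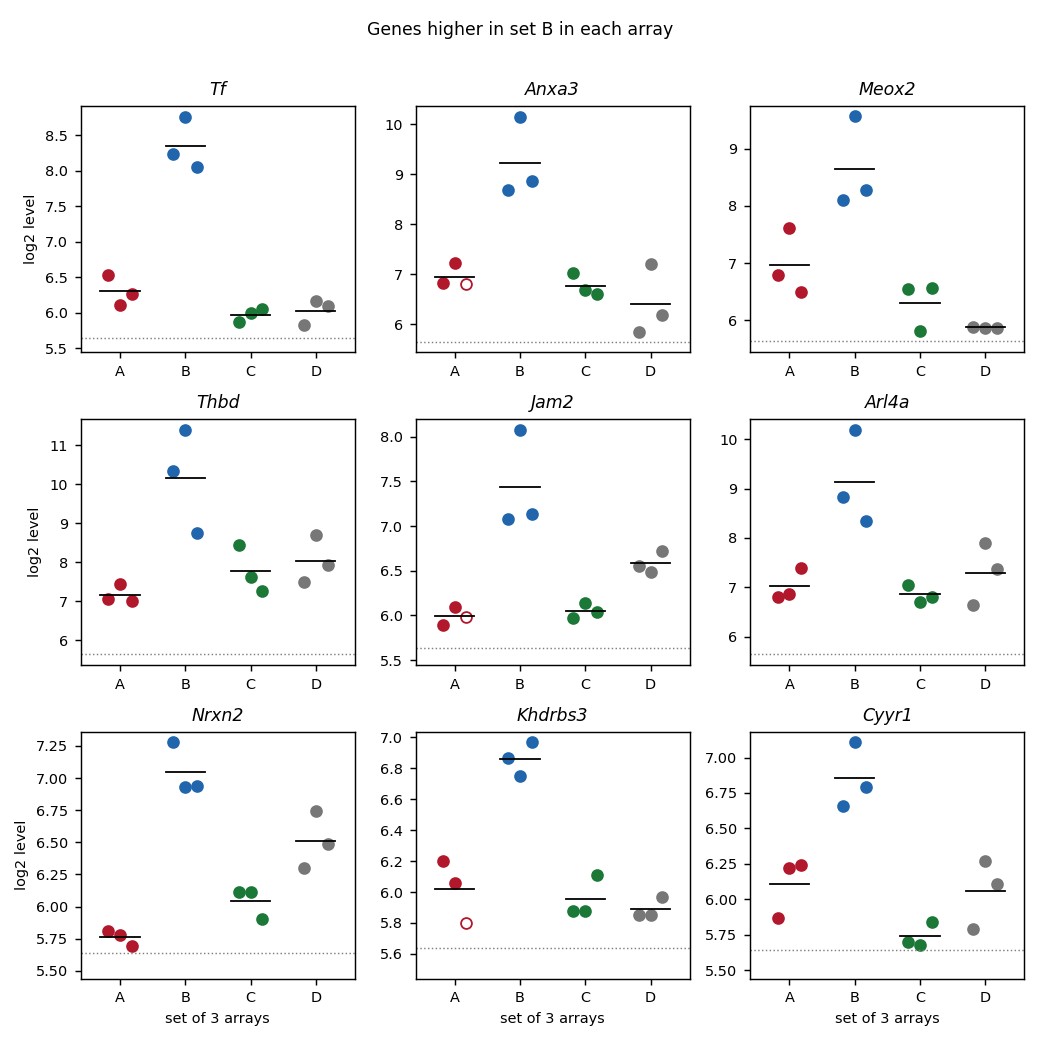
Log2 level (vertical axis) of 9 genes higher in set B in each array, by set of 3 arrays (horizontal axis), with means of 3 as bars and the floor of 5.64 dotted. By the value table, B is the stenotic side branch and A and D are the venous-flow vein; open circles mark stenotic side branch 3 of the scanner output where the spot lies in the strip. Set B has the highest mean for each gene.

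The other arrays stood mostly with the lower set for both groups of genes. For the 37 features higher in set A, set D was nearer to set B in all 37, set C in 34 and the NIH vein in 27. For the 35 features higher in set B, set C was nearer to set A in 34, the NIH vein in 34 and set D in 25. The features were chosen by the difference between sets A and B on these same arrays. These counts describe means of arrays that shared a normalization, and they give no separate support to that difference.

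**Figure D4:**
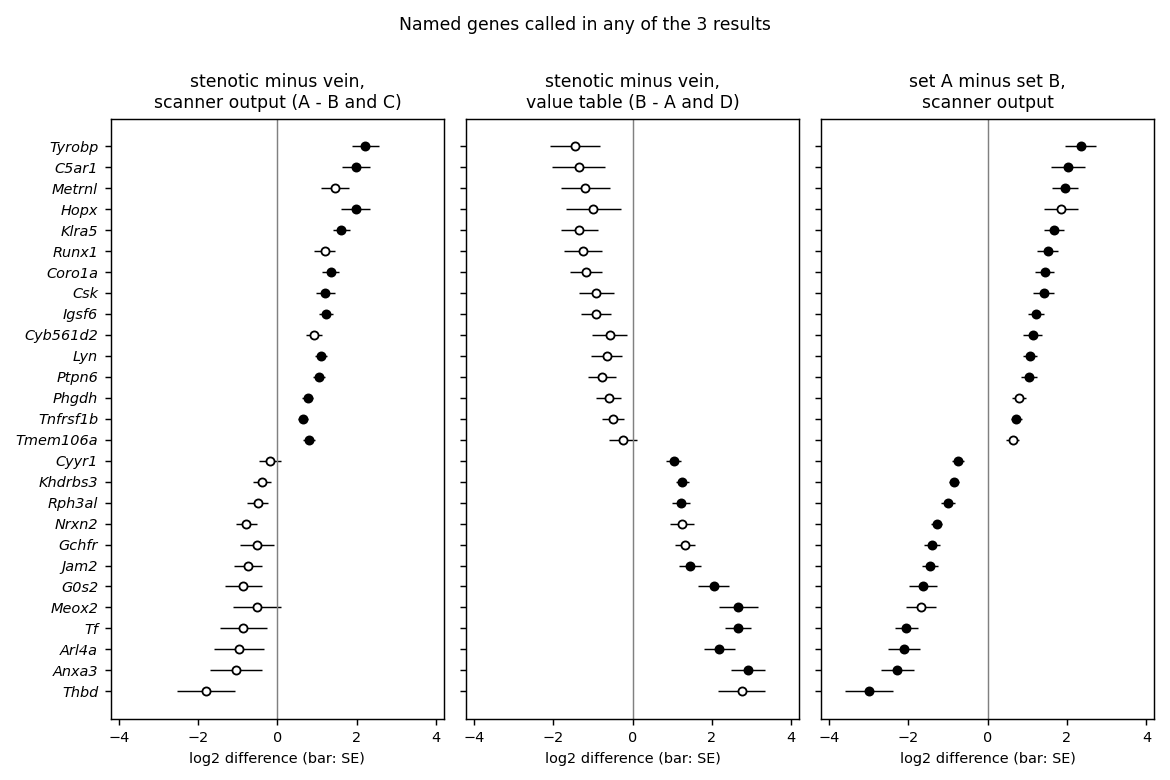
Log2 differences (horizontal axes, bars are SE) of the named genes called in any of the 3 results (vertical axis), for the stenotic side branch minus vein by the scanner output, the same by the value table, and set A minus set B. Filled points were called. The signs in the first panel oppose those in the second.

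Promoters were read for the genes called between sets A and B or in either form. The sides were set by the direction of the call. RefSeq sequence of build GRCr8 was at hand for 13 of 17 genes higher in set A and for 13 of 16 higher in set B; Tyrobp, C5ar1, Lyn, Csk and Thbd are not among them. The 250 bases before each start were searched on both strands for GAGGAA, a core of sites of the myeloid factor PU.1, and for CCACCC, a core of sites of the KLF factors, some of which respond to flow in endothelium. Matches of both motifs can share at most 1 letter. CCACCC was in 7 of 13 promoters on either side (53.8%), in 30.7% of the 2339 promoters of all tested symbols and in 26.6% of all 27457 in the table. GAGGAA was in 2 of 13 on the set A side (15.4%) and in 4 of 13 on the set B side (30.8%), against 25.1% of tested symbols. CCACCC was equally frequent on both sides, and a match is only a match of letters. A stretch of 80 bases around the CCACCC match, in capitals (GGGTGG where it lies on the other strand), is shown for 2 genes of each side: Coro1a (chr1:190731104-190731183, minus strand), Ptpn6 (chr4:159237070-159237149, minus strand), Tf (chr8:112695466-112695545, minus strand) and Jam2 (chr11:37317435-37317514, plus strand).
Coro1a: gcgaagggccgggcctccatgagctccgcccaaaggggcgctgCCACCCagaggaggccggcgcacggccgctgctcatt
Ptpn6: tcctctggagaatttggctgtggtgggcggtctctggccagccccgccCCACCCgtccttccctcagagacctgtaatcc
Tf: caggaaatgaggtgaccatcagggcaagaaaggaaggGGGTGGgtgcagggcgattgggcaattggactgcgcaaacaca
Jam2: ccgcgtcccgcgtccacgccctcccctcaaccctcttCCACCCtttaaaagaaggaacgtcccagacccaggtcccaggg
The nearest match lies 37 bases before the start in Coro1a, 32 in Ptpn6, 88 in Jam2 and 132 in Tf.

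Of 28 lists of genes, with 604 members in all, 184 members were measured. The lists and their members were chosen with earlier results of these data known. Their counts and medians describe the lists and give no separate support to the calls. In the list of leukocyte signalling and adaptors, 14 of 15 measured members had a higher mean in the stenotic side branch by the scanner output, with a median log2 difference of 1.05, and 7 were called (Tyrobp, Lyn, Csk, Ptpn6, Coro1a, Igsf6 and Klra5). Over all features 0.371% were called higher, 53.5% had a positive difference and the median was 0.02. Of members that were not called, Laptm5, a lysosomal protein of blood cells, stood at 9.38, 9.33 and 10.48 against 7.31 to 8.66 (log2 1.66, adjusted p = 0.0755). Arhgdib, a regulator of small GTPases in blood cells, had 0.86 (adjusted p = 0.113), and the kinase Fgr, near the floor, 0.23 (adjusted p = 0.132). With the strip left out the list's median was 0.91, and by the value table it was -0.81, with 1 of 15 members higher. The myeloid list held Lgals3, a lectin of macrophages, at 10.24, 11.13 and 14.40 against 8.05 to 11.57 (1.91, adjusted p = 0.357), and Spp1, osteopontin, at 6.43, 6.32 and 7.53 against 5.66 to 6.83 (0.65, adjusted p = 0.318). Its 8 measured members were higher in 7 cases, 1 was called, and the median was 0.38, or 0.54 with the strip left out and -0.60 by the value table. Among them, Cd68 had 0.04 (adjusted p = 0.977) and Csf1r -0.05 (adjusted p = 0.909). Both have spots in the strip, and with it left out they had 0.57 and -0.03, not called. Gpnmb had 0.12, Cd14 0.30 and Ctss 0.45, none of them called.

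By the scanner output, most measured complement and interferon genes had a higher mean in the stenotic side branch. Of 7 measured genes of complement and Fc receptors, 6 were higher with a median of 0.48 and 1 was called. With the strip left out the median was 1.03 and 3 were called, where 0.625% of all features were called higher and 47.2% had a positive difference. C3ar1, the receptor of C3a, was the exception, at 9.38, 7.24 and 6.69 against 6.49 to 11.32. The interferon and antigen presentation list had 12 measured members, of which 8 were higher with a median of 0.48, and none was called. Over all features 53.5% had a positive difference. The lower members were Psmb10 (-0.39), RT1-Db1 (-0.22), RT1-CE5 (-0.09) and RT1-A2 (-0.05). Irf7, a regulator of interferon genes, stood at 7.48, 6.77 and 7.54 against 5.92 to 6.40 (log2 1.07, adjusted p = 0.0548; 0.0878 with the strip left out). Oas1a, an antiviral enzyme, stood at 8.44, 8.43 and 7.78, with set B from 6.84 to 7.58 and set C from 6.19 to 6.57 (1.43, adjusted p = 0.0548). For both genes no vein reached the lowest stenotic array. By the value table these lists had medians of -0.43 and -0.06.

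Several matrix genes had large differences with wide spread. Of 12 matrix proteases and inhibitors, 9 were higher with a median of 0.52, and 11 with a median of 1.25 when the strip was left out; no member was called. Ctsb, the lysosomal protease cathepsin B, stood at 12.70, 13.49 and 15.04 against 10.48 to 12.51 (log2 2.24, adjusted p = 0.104), without overlap. Timp1, an inhibitor of matrix proteases, stood at 9.36, 7.86 and 8.52 against 6.39 to 7.30 (1.65, adjusted p = 0.0548). Timp2, Ctsk, Mmp2 and Ctss have spots in the strip, where stenotic side branch 3 read between 5.81 and 5.96. Of 12 extracellular matrix genes, 9 were higher with a median of 0.36. Col1a2, which encodes part of the main fibrillar collagen, stood at 13.18, 14.78 and 15.21 against 10.92 to 13.33 (2.19, adjusted p = 0.159), and its second probe gave 0.48. Fn1, fibronectin, stood at 11.78, 13.28 and 14.23 against 9.06 to 13.18 (2.38, adjusted p = 0.271).

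Genes of junctions and flow response leaned the other way by the scanner output. Of 6 junction genes 1 was higher, with a median of -0.93, and none was called. Gja5, the connexin typical of arteries, stood at 6.27, 7.33 and 6.50 against 6.30 to 8.73 (log2 -1.10, adjusted p = 0.22). Its mean was 7.31 in set B and 8.30 in set C, which the value table carries as femoral artery, and 8.79 in set D. The difference of set A minus set B was -0.61 (adjusted p = 0.575). By the value table Gja5 was lower as well (-0.48, adjusted p = 0.926). Gja1, another connexin, stood at 6.96, 6.73 and 5.84 against 7.08 to 9.03 (-1.37, adjusted p = 0.202). Of 14 flow-responsive and vasoactive genes 4 were higher, with a median of -0.12. In the value table, 11 of the 14 were higher with a median of 1.00, against 43.4% positive and a median of -0.04 over all features, and none was called. Cxcl1, a chemokine for neutrophils, stood at 6.68, 6.71 and 6.38 in set A and 10.89, 12.31 and 7.22 in set B. Its log2 difference was -1.58 by the scanner output (adjusted p = 0.523) and 4.13 by the value table (adjusted p = 0.131).

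**Figure D5:**
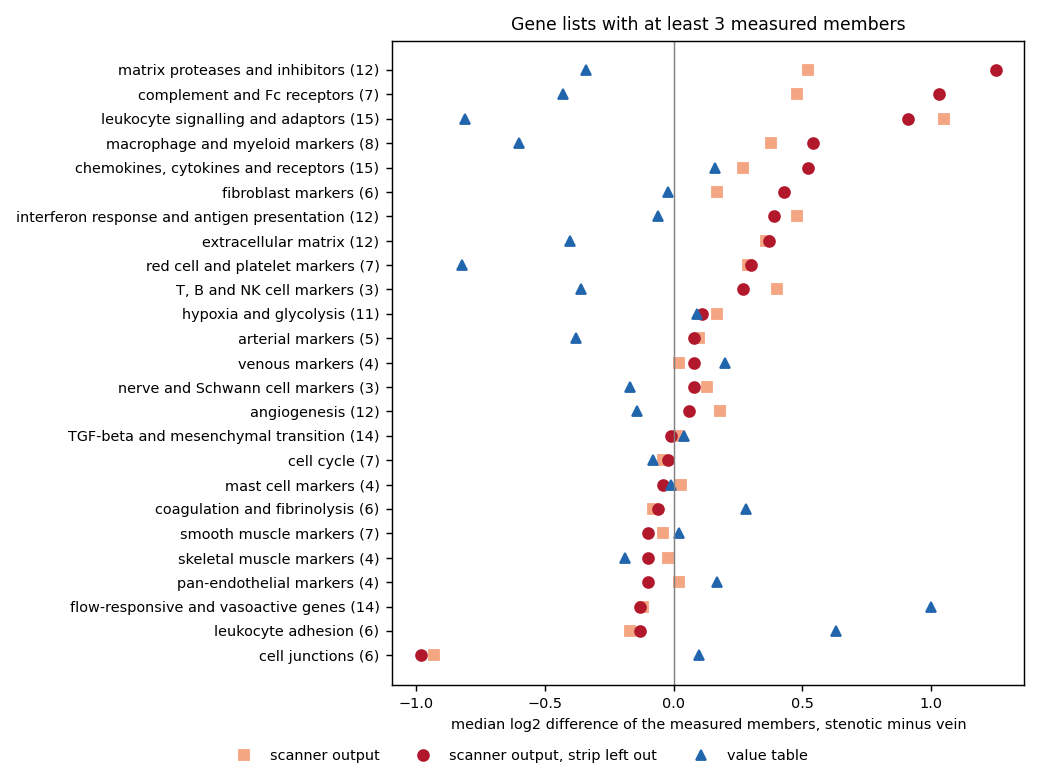
Median log2 difference, stenotic side branch minus venous-flow vein (horizontal axis), of each gene list with at least 3 measured members, whose number stands in brackets (vertical axis). Squares are the scanner output, circles the same with the strip left out, triangles the value table. The leukocyte signalling list lies at 1.05, 0.91 and -0.81.

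Summed levels of markers of cells other than endothelium differed between the sets for some lists and overlapped for others. The summed level of the 15 leukocyte signalling genes, as intensity above the offset, was 1842 to 4457 in set A, 487 to 816 in set B, 668 to 1011 in set C and 679 to 1063 in set D. That of the 8 myeloid markers was 1673 to 22443 in set A, 1363 to 3075 in set B and 343 to 1216 in set C, and most of its top in set A is Lgals3 on stenotic side branch 3. None of the 8 myeloid markers lay at the floor on every array, while Ptpn18 of the signalling list did. Defining genes such as Ptprc and Itgam are not analysed here. Of 6 measured fibroblast markers, the sum was 11544 to 37972 in set A, 3959 to 12079 in set B and 2481 to 11248 in set C, with Serpinf1 at the floor, and most of its top is Col1a2 on stenotic side branch 3. The fibroblast sum was 849 to 3478 in set D and 9985 to 39856 in the NIH vein. Of 7 red cell and platelet markers, 6 were higher (median 0.29). Their sum was 14477 to 55465 in set A, 2789 to 14913 in set B, 1448 to 38465 in set C and 8235 to 56247 in set D. Most of that is Hbb-b1, a haemoglobin chain, at 13.75, 15.75 and 15.75 against 10.38 to 15.21 (log2 2.31, adjusted p = 0.25). The 7 measured smooth muscle markers had a sum of 3166 to 4474 in set A, 4020 to 30843 in set B and 993 to 4933 in set C, with Tagln and Casq2 at the floor, and most of its top is Tpm2, at 14.90 on venous-flow vein 5. Of 3 T, B and NK cell markers, Cd74 had a log2 difference of 0.44 (adjusted p = 0.0521), Cd3d 0.40 (adjusted p = 0.202) and Cd8b -0.15 (adjusted p = 0.547). Cd74 is also a member of the interferon and antigen presentation list. The 4 measured mast cell markers had a sum of 141 to 153 in set A, 122 to 174 in set B and 103 to 174 in set C. The 4 pan-endothelial markers had a sum of 170 to 576 in set A and 103 to 375 in sets B and C. The part of these cells in the results was not tested.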

How the data were processed

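Each of the 17 regions was hybridized to 1 single-colour array. Per the file headers, the deposited scanner output holds mean signal and mean local background per spot as intensity. The deposited value table holds log2 values for 10000 of 41372 gene spots, quantile normalized as its sorted columns show. On 8 of the 9 arrays compared the background column had been filled from other arrays, so its values are no measurement there. Scanner and scanning software: not given in the sources used here.

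With limma 3.58.1 (R 4.3.3), the 10000 spots were background-corrected by normexp with an offset of 50, brought to log2 and then quantile normalized across arrays. Symbols came from a RefSeq table by accession (31.2% of spots), and the brightest probe stood for each name, which left 9446 features, 2878 with a symbol. One limma model with a mean per group was fitted to all 17 arrays, and for the sets to all 17 as 5 groups. P-values are 2-sided with Benjamini-Hochberg adjustment within each result. Tables were handled with Python 3.11.15, pandas 2.3.3, numpy 2.4.6 and scipy 1.17.1, and figures drawn with matplotlib 3.10.9.

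For each result up to 12 called genes were named for the size of their rise and up to 8 for that of their fall, with up to 3 called members, or up to 2 as values, of each list. Values of other list members were chosen after seeing them. The members and lists were chosen with earlier results of these data known. On simulated data with 9446 features, the scanner comparison recovered 63% of changes of 1 and 90% of changes of 2 on the log2 scale, with 8 false calls among 9246 features. Simulated levels were held at or above the lowest level of the real data. They were drawn independently for each feature and array, without the strip, the correlation between arrays or a normalization. The recovered shares and false calls may therefore not hold for the real data. At most 7 spots on an array exceeded 65000 intensity units.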

Additional observations from a re-analysis of the deposited data

Results flagged for a closer look

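In 1 column of the value table, 2 genes stood far from the rest of their group. Egln3, an oxygen-sensing hydroxylase, stood at 5.87 in venous-flow vein 3, with 5.20 as the next highest of the 6 veins. Slc2a4, a glucose transporter, stood at 5.22 in the same column, with 5.71 as the next lowest. These were 2 of 124 groups looked at, and chance alone marks about 1 in 20. That column has the rank order of stenotic side branch 3 of the scanner output, the array with the strip, though neither spot lies in it.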

How the results depend on the processing

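Depth limits the values: most spots lie near the floor of 5.64, where differences are compressed, and the background was filled in on 8 of 9 arrays. Of 37 features called by the scanner output, 20 had the lower mean within 0.5 of the floor. The 37 calls became 91 with background subtracted, 111 with an offset of 16, 5 with median scaling, 72 when features of below-median mean were left out, 86 with only the 2 groups fitted, 72 with the strip left out, and 3802 with array weights, whose fit did not converge. All 37 kept their sign in the fits that tested all of them, except under the samples of the value table, as did the 28 tested among features of higher mean; signs were not compared with every probe spot kept. Without 1 array the count ran from 8 to 128. The 20 calls of the value table became 13 among features of higher mean, 2 with only 2 groups, and 3 to 22 without 1 column. The 72 calls between sets A and B became 4 with median scaling, 22 with only 2 groups, 2294 with array weights, and 8 to 64 without 1 array. The cause was not tested. Same-numbered samples did not all deviate together (correlations of 0.329, 0.297 and -0.268 in the scanner output, and 0.237, 0.744 and -0.412 in the value table), so the numbers were not taken as pairs; with a replicate block the counts were 1 for the scanner output and 2 for the value table.

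Scanner values with the samples of the value table reversed the sign of 12 genes, by construction of the assignment: Tyrobp had a log2 difference of -1.29, C5ar1 -1.09, Hopx -0.85, Klra5 -1.01, Coro1a -0.91, Igsf6 -0.69, Csk -0.75, Lyn -0.49, Ptpn6 -0.58, Tmem106a -0.19, Phgdh -0.43 and Tnfrsf1b -0.36.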
